A study of Mus musculus with 321 samples.

Results

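CD4+CD8+ thymocytes (DP cells), the stage at which most developing T cells of the thymus rearrange and test the alpha chain of their antigen receptor, were compared between Tcf-1 knockout (KO) and wild-type (WT) mice by ATAC-seq, which maps open chromatin by inserting sequencing adapters with the Tn5 transposase. The comparison holds 4 of the 321 samples of the series: 2 KO libraries (genotype TCF-1-/- deltaVII) and 2 WT libraries (C56BL/6 in the spelling of the labels). All 4 came from CD4+CD8+ cells sorted by flow cytometry, and the labels name no agent for either group. The deltaVII allele is a germline deletion within Tcf7, the gene of Tcf-1, so every cell of the animal carries it, at all earlier stages of thymocyte development as well. The age and sex of the animals, their number and any pooling are not given in the sources used here, and nothing says that the libraries of 1 group came from separate animals, so a p-value over libraries measures only the spread between these libraries.

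Tcf-1 is a DNA-binding protein of the HMG-box family that recognises short sequences around CTTTGA and can recruit beta-catenin, the effector of Wnt signalling, or corepressors of the Tle family. It is switched on by Notch signalling in the earliest thymic progenitors and is known for its part in committing them to the T lineage and in the survival and maturation of DP cells. Open chromatin marks promoters, which lie at the start sites of genes, and enhancers, which can lie far from them. Promoters rich in CpG dinucleotides tend to be open in most cell types, while CpG-poor promoters and enhancers tend to be open in few.

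The 4 peak lists were merged wherever peaks shared at least 1 bp, which gave 31628 regions. A region was called lost if both WT lists and no KO list held it, gained in the opposite case, and kept if all 4 lists held it. Of the 21952 regions held by both WT lists, 10032 were lost, 9239 were kept, and 2681 were in a single KO list (864 in KO replicate 1 and 1817 in KO replicate 2). The lost share was thus 45.7%, the background against which the members below are read, and the kept share was 42.1%. Only 45 of the 9411 regions held by both KO lists were gained, a share of 0.478%, and this count was 204 without KO replicate 1, 149 without KO replicate 2 and 185 without WT replicate 2. These counts depend on list length: with each list cut to its 11171 widest peaks, 1361 regions were lost, 955 gained and 6994 kept. The narrowest peak left was 349 and 443 bp wide in WT and 200 and 210 bp in KO. Regions with narrower WT peaks could thus turn from kept to gained. Without WT replicate 1 the lost count was 18418, since 8293 regions were in the list of WT replicate 2 alone.

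The start-site sequences of T cell receptor and coreceptor genes give examples of lost and kept promoters. Each sequence is the 250 bases before the start site, from 5′ to 3′ on the strand of the gene, from RefSeq on GRCm38.p6. In the first set CpG dinucleotides are in capitals, and the windows, picked after their values were seen, set lost and kept CpG-poor promoters beside a kept CpG-rich one.
Cd3e, a subunit of the receptor complex, lost, chr9:45009612-45009861, minus strand: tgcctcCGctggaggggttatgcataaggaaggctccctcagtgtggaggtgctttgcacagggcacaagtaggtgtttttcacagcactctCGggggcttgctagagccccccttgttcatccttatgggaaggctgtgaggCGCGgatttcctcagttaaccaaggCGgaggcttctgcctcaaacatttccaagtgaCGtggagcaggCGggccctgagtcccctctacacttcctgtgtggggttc
Cd8a, the alpha chain of the CD8 coreceptor, lost, chr6:71373177-71373426, plus strand: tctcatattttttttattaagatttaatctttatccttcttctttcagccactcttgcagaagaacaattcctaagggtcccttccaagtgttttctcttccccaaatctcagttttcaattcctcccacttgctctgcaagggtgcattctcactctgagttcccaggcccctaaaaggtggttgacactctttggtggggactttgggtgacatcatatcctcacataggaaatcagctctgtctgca
Cd3g, a further subunit of the complex and a neighbour of Cd3e, kept, chr9:44980432-44980681, minus strand: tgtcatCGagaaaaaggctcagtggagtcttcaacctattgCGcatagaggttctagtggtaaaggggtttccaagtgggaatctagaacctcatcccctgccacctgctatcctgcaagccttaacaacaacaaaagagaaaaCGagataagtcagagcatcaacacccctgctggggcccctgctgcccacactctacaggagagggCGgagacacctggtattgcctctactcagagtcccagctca
Fyn, a Src-family kinase downstream of the receptor, kept, chr10:39369549-39369798, plus strand: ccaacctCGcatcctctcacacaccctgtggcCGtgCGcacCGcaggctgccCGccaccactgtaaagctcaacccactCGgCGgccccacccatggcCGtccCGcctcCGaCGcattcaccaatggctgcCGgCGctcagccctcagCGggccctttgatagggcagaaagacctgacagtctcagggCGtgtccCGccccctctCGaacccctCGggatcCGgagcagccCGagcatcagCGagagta
In these 250 bases Cd3e had 7 CpG, Cd8a 0, Cd3g 4 and Fyn 21. With the 50 bases after the start added, Cd3e had 8 and Cd8a 3, fewer than the median of 15 over all lost promoters. The second set holds promoters of the T cell receptor list with 1 of the 7-letter Tcf/Lef sequences CTTTGAT or CTTTGAA on either strand, here in capitals, apart from Fyn, which has CTTTGAT too.
Trat1, an adaptor of the receptor complex, lost, chr16:48772063-48772312, minus strand: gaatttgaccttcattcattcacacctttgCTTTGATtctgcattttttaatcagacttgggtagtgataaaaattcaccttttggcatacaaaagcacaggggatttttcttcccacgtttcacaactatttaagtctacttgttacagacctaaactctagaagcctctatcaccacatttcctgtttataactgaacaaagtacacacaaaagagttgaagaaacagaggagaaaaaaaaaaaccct
Txk, a Tec-family kinase, kept, chr5:72752778-72753027, minus strand: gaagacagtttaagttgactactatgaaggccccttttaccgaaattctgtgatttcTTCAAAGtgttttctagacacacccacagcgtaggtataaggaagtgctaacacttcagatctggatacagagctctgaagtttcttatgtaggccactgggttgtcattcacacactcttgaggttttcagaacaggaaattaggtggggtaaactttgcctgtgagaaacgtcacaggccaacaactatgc
A match of this kind is a description of the letters and does not show binding.

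The length of the lists differed more between groups than within them. The KO lists held 11171 and 12209 peaks on named chromosomes, and the WT lists 23249 and 30985. The groups did not overlap, and the mean was 11690 ± 734 peaks in KO and 27117 ± 5470 in WT (SD, n = 2 each). The exact two-sided permutation p was 0.33, the lowest value that 2 against 2 libraries can give, and the same holds for every test over libraries here unless another p is given. The peaks covered 4.39 and 4.90 Mb in KO and 9.38 and 13.3 Mb in WT. The median peak was 345 and 346 bp wide in KO and 339 and 353 bp in WT, so KO lay inside the WT range (exact p = 1). No read depth is given, so fewer open regions and fewer calls from the same chromatin cannot be told apart from list length alone.

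Nearly all KO peaks lay at sites that WT also had. Of the peaks of KO replicates 1 and 2, 95.5% and 95.1% overlapped a peak of WT replicate 1, and 98.6% and 98.1% a peak of WT replicate 2. The KO replicates overlapped each other less, with 88.5% of the peaks of replicate 1 in replicate 2 and 80.2% in the other direction. Of the WT peaks, 44.6% and 48.96% of replicate 1 and 33.9% and 37.1% of replicate 2 were in KO replicates 1 and 2. The KO lists were close to a subset of the longer WT lists.

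The makeup of the lists differed as well. Peaks within 1 kb of an annotated start site were 66.8% and 62.97% of the KO lists and 40.5% and 34.9% of the WT lists, a difference of 27.2 points. Peaks farther away numbered 3606 and 4392 in KO and 13376 and 19525 in WT. When each list was cut to its 11171 widest peaks, the length of the shortest list, the start-site share was 66.8% and 65.4% in KO and 57.3% and 59.8% in WT, a difference of 7.55 points. KO was above WT in both replicates of either version, and the difference was smaller with lists of equal length. The narrowest peak left in was then 200 and 210 bp wide in KO but 349 and 443 bp in WT, so the narrow peaks taken out came almost all from WT.

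**Figure D1:**
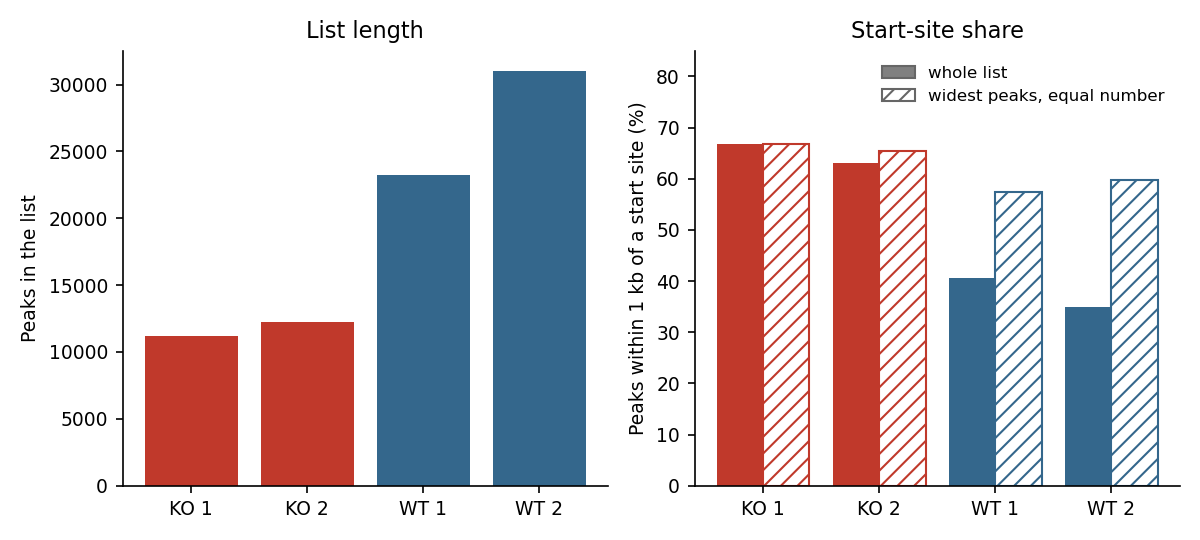
Peaks per list (left) and percent of peaks within 1 kb of a start site (right) in KO and WT libraries, 1 bar per library; hatched bars show lists cut to their 11171 widest peaks. The KO lists hold 11171 and 12209 peaks and the WT lists 23249 and 30985, and the start-site share of the WT lists is 57.3% and 59.8% after the cut.

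A cell type other than thymocytes gave a second way to read the makeup. Regions open in all 4 libraries of NIH3T3 fibroblasts with an empty retrovirus, an established mouse line outside the T lineage, held 57.3% and 54.1% of KO peaks and 33.1% and 26.4% of WT peaks, a difference of 25.9 points. With lists of equal length the difference was 3.74 points. Among regions more than 1 kb from a start site, 7.09% of the lost ones (95% Wilson interval 6.56 to 7.67) and 40.3% of the kept ones (38.5 to 42.1) were open in the fibroblasts. These intervals allow for counting error alone, and regions close to each other share their source. With regions open in at least 1 fibroblast library, the shares over all positions were 31.3% of lost (30.4 to 32.3) and 81.4% of kept regions (80.6 to 82.1).

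Other maps from the same fibroblasts were set beside the regions. The pooled list of Tcf-1 ChIP-seq summits comes from NIH3T3 cells given Tcf-1 by retrovirus, so it shows where the factor sat in fibroblasts and not in thymocytes. A summit lay in 5.96% of the lost distal regions (5.47 to 6.49) and in 13.01% of the kept ones (11.8 to 14.3). The midpoint lay in an island of H3K27me3, the mark of Polycomb repression, in both fibroblast replicates at 10.3% of lost (9.73 to 10.9) and 4.46% of kept regions (4.06 to 4.90). For H3K9me3, a mark of constitutive heterochromatin, the shares were 5.47% (5.04 to 5.93) and 2.92% (2.60 to 3.29). The shares for both marks are over regions at all positions, of which 64.7% of the kept and 8.89% of the lost ones span a start site. Kept regions were also wider, with a median merged width of 658 bp against 335 bp for lost ones, and the part of position and width in these differences was not tested.

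Markers of DP cells were open in WT and in part in KO. Dntt, which encodes the terminal transferase that adds bases at receptor joints, had 1 and 2 regions in KO and 4 and 4 in WT. Ptcra, the pre-T receptor alpha chain, had 1 in every library. Rag1 and Rag2, the recombinase that cuts receptor genes, and Cd4 had no region in KO replicate 1, and 1, 1 and 2 regions in KO replicate 2, against 1, 1 and 2 in each WT library. Cd8b1, the beta chain of CD8, had 0 and 2 regions in KO and 2 and 5 in WT. The defining markers of DP cells were therefore at 0 for 4 of 8 genes in KO replicate 1 and for none in KO replicate 2. Among markers of other cells, 1 and 0 of 10 B cell genes, 1 and 2 of 10 myeloid genes and 4 and 5 of 11 NK and innate lymphoid genes had a region in KO, against 5 and 5, 3 and 6, and 7 and 7 in WT. No list of another cell type had more open genes in both KO libraries than in both WT libraries. The KO lists were shorter and close to a subset of the WT lists, so this count could hardly come out otherwise. It therefore says nothing about other cells in the sort. How far the makeup of the sorted cells moved any result was not tested.

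Loss was lowest over start sites and nearly even beyond the first kilobases. Of 7368 regions that span a start site, 11.7% were lost (10.96 to 12.4). The share was 45.1% for regions 1 to 100 bp away, 55.1% beyond 500 bp up to 1 kb and 65.1% at 1 to 2 kb. From there it stayed between 64.9% and 66.9% in every class up to 100 kb, and it was 59.8% (57.5 to 62.2) beyond 100 kb. Each KO library showed the same shape by itself: 17.6% and 15.3% of the start-site regions were absent from KO replicates 1 and 2, and 76.6% and 69.2% of those at 1 to 2 kb. Start-site regions were also wider, with a median narrower WT peak of 508 bp, against 278.5 to 318 bp in the classes beyond 1 kb.

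**Figure D2:**
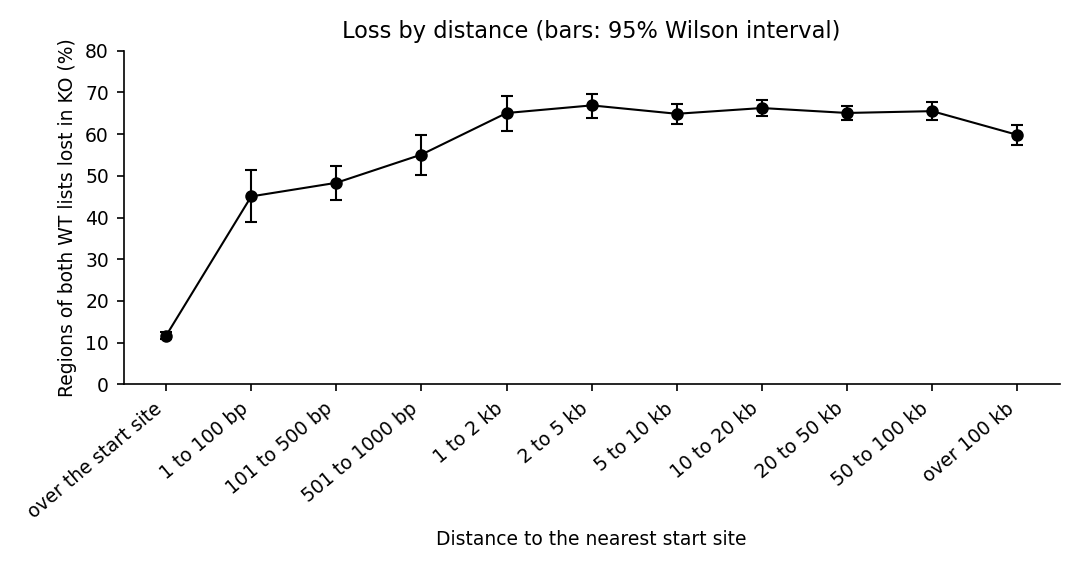
Percent of the regions of both WT lists that were lost in KO, by distance to the nearest start site; points are shares over regions and bars 95% Wilson intervals. The share is 11.7% over the start site and between 64.9% and 66.9% in the classes from 1 to 100 kb.

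Width was the only value the lists give per peak, and loss followed it closely. The narrower of both WT peaks had a median of 257 bp at lost regions, 328 bp at regions in a single KO list and 520 bp at kept ones. Away from start sites 91.7% of regions under 250 bp wide were lost (90.9 to 92.5), 54.4% of those from 300 to under 400 bp and 6.80% at 700 bp and over (4.74 to 9.65). Over start sites the shares in the same classes were 50.9% (46.7 to 55.2), 14.6% and 1.28% (0.830 to 1.97). At every width class distal regions were lost more often than start-site regions, and the intervals did not overlap. With lists of equal length 30.1% of distal and 4.84% of start-site regions were lost, out of 3354 and 5246. Those shares are lower than in the whole lists, but their order is the same.

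The WT lists show how often a site of a given width dropped out between 2 libraries of 1 group. Both WT lists were longer than either KO list, so the shares below are not matched for list length. The part of list length in them was not tested. Of the distal peaks from 500 to under 700 bp in WT replicate 2, 47.9% and 41.04% were absent from KO replicates 1 and 2 and 3.20% from WT replicate 1. At 700 bp and over, 22.4% and 17.7% were absent from KO and 0.531% from WT replicate 1. For the narrowest class, under 250 bp, the values were 98.8% and 98.4% in KO and 73.1% in WT replicate 1. In the other direction, distal peaks under 250 bp in WT replicate 1, the shorter WT list, were absent from KO replicates 1 and 2 in 95.995% and 94.1% of cases and from WT replicate 2 in 9.33%. At 500 to under 700 bp those shares were 34.3% and 25.6% in KO and 0% in WT replicate 2. Narrow peaks of the longer WT list were thus often missing from the shorter one, and wide peaks of either WT list seldom from the other. In the longer of the KO lists, distal peaks from 500 to under 700 bp were absent from KO replicate 1 in 3.30% of cases.

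**Figure D3:**
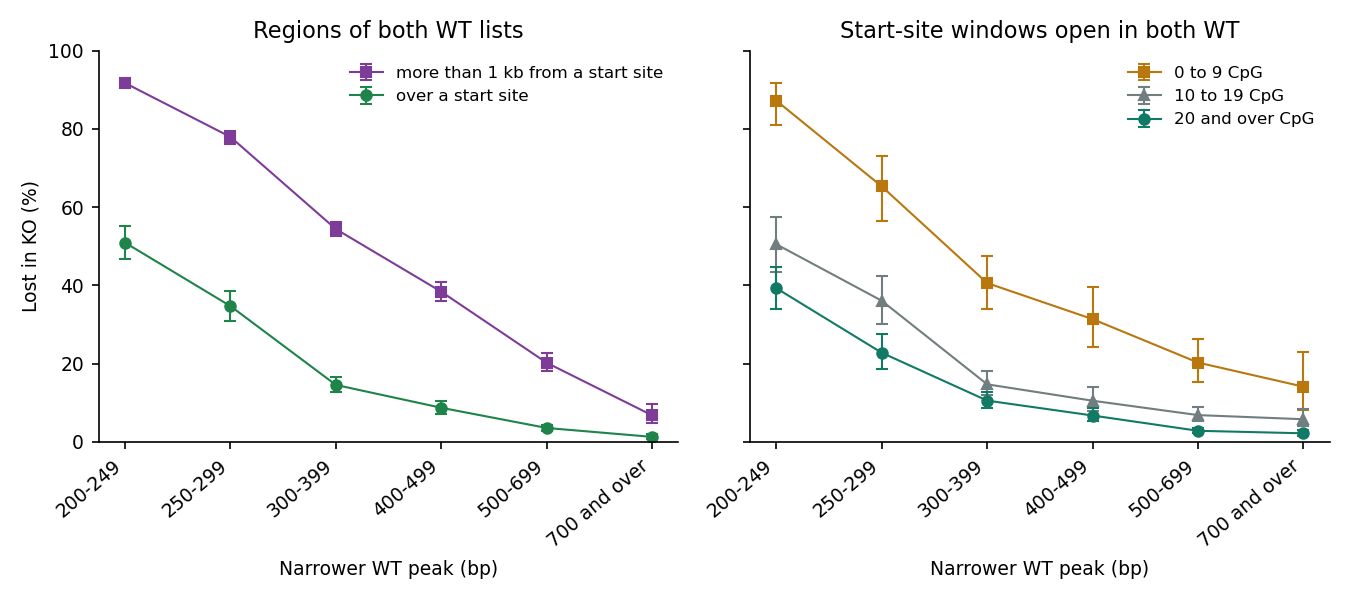
Percent lost in KO by width of the narrower WT peak, in bp, for regions over and more than 1 kb from a start site (left) and for start-site windows by CpG count (right); bars are 95% Wilson intervals. Distal regions lie above start-site regions in every class, from 91.7% against 50.9% to 6.80% against 1.28%, and windows with 0 to 9 CpG lie above the others.

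Among start sites, the share of promoters lost fell as CpG content rose. Windows of 300 bases, from 250 before to 50 after the start, were scored for 32817 start sites, and 9651 were open in both WT libraries, of which 1222 (12.7%) were lost. Lost windows had a median of 15 CpG and 57.7% G+C, and kept windows 25 CpG and 63.7%. The sets overlapped, and 458 lost windows had 20 or more CpG. The share lost was 54.5% (48.5 to 60.3) with 0 to 4 CpG, 38.2% with 5 to 9, 14.6% with 10 to 19, 8.04% with 20 to 29 and 6.66% (5.80 to 7.64) with 30 or more. CpG-poor windows also had narrower WT peaks, with a median of 394.5 bp at 0 to 9 CpG, 493 bp at 10 to 19 and 553 bp at 20 and over. The order held within width classes: of windows with WT peaks from 500 to under 700 bp, 20.3% were lost with 0 to 9 CpG (15.4 to 26.2), 6.85% with 10 to 19 and 2.84% with 20 or more (2.19 to 3.67).

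Short sequences in the same windows were set against all start sites. The Tcf/Lef sequences CTTTGAT or CTTTGAA, on either strand, were in 7.86% of lost windows (6.48 to 9.50), 4.82% of kept ones (4.36 to 5.33) and 8.65% of all 32817 windows, so the lost windows held them at about the share of all start sites. The median G+C was 57.7% in lost, 63.7% in kept and 52.7% in all windows. The part of base composition in these shares was not tested. The Ets sequence CCGGAA was in 16.4% of lost and 35.9% of kept windows, against 14.9% of all. The Sp/Klf sequence GGGCGG was in 54.8% of lost and 74.8% of kept windows, against 35.6% of all. Both of these hold a CpG themselves. The Runx sequence TGTGGT was in 15.8% of lost and 10.8% of kept windows, against 16.8% of all. A missing match says only that these letters are not in the window.

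T cell genes were found among both lost and kept promoters. In the T cell receptor list, 16 start-site windows were open in both WT libraries, of which 5 were lost (Cd3e, Cd5, Trat1, 1 start of Themis and the upstream start of Lck, the kinase bound to CD4 and CD8), 3 were in a single KO list and 8 were kept (Cd3g, Fyn, Lat, Plcg1, Ptcra, Rasgrp1, Txk and the downstream start of Lck). The 2 starts of Lck went different ways. The start windows of Themis overlap, and the single region there was in KO replicate 2, whose peak reached 1 window and not the other. In the DP list 2 of 8 windows were lost (Cd8a and Slamf1) and 2 were in KO replicate 2 alone (Rag1 and Rag2). Of the T lineage transcription factors, 6 of 19 windows were lost: Gfi1, Ikzf1, Notch1, Runx3, 1 start of Nfatc3 and the distal start of Runx1. All 4 open windows of the costimulatory list were lost, at Btla, Cd96, Ctla4 and Pdcd1, receptors that mostly restrain T cells. Homing genes lost 2 of 6 open windows, cytokine receptors 2 of 7 and Wnt pathway genes 1 of 7. Lists that are not particular to T cells lost windows as well, with 5 of 17 for chromatin regulators and 3 of 13 for apoptosis and cell cycle genes. Among housekeeping genes 1 of 10 was lost (Eef2) and 9 were kept, Gapdh, Tbp and Polr2a among them. Of all open windows 12.7% were lost.

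Over whole loci, the lists of T cell and Wnt pathway genes lost from 46.5% to 71.9% of their regions, against 45.7% of all regions. The costimulatory and adhesion receptors lost 23 of 32, the genes of the T cell receptor and its signalling 46 of 73, the T lineage transcription factors 56 of 92, the Wnt pathway genes 21 of 35, the homing and maturation genes 22 of 38, the cytokine receptors 20 of 38 and the DP thymocyte genes 20 of 43. The apoptosis and cell cycle genes lost 20 of 41, chromatin regulators 10 of 32 and housekeeping genes 6 of 23. Lists differ in how many of their regions are distal and in their WT width, whose medians ran from 287.5 bp in the costimulatory list to 434 bp in the chromatin regulators. Among distal regions alone 64.8% of all were lost. The shares were 76.2% for the Wnt pathway genes (16 of 21), 74.5% for the T cell receptor list (41 of 55) and 69.6% for the costimulatory list (16 of 23). They were 66.7% for the T lineage factors (44 of 66) and the homing genes (18 of 27), and 58.6% for the cytokine receptors (17 of 29). Lower shares were 52.6% for the apoptosis and cell cycle genes (10 of 19) and 50% for the DP genes (16 of 32). The lowest were 47.1% for the chromatin regulators (8 of 17) and 30.8% for the housekeeping genes (4 of 13). With lists of equal length, 14.9% of all regions were lost. A lost region was then found at 6 of 20 genes of the T cell receptor list, 1 of them (Themis) with none in the whole lists, and at 4 of 20 T lineage factors, 4 of 15 DP genes, 3 of 13 Wnt pathway genes, 2 of 12 costimulatory receptors and 2 of 16 chromatin regulators. It was found at 1 gene in each of the homing, cytokine receptor, apoptosis and cell cycle, and housekeeping lists. These are counts of genes, many with several regions, so they cannot be read against the 14.9% of regions. No share over all genes is given for lists of equal length.

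**Figure D4:**
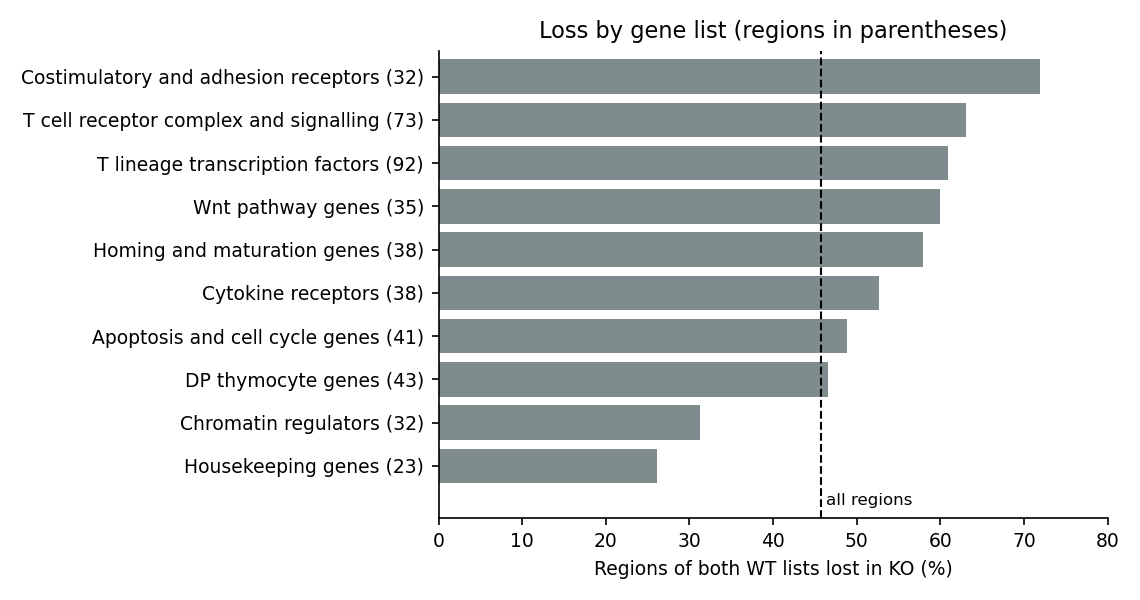
Percent of the regions of both WT lists that were lost in KO, for each gene list with at least 20 regions (number of regions in parentheses); the dashed line marks the 45.7% of all regions. The costimulatory receptors stand at 71.9% and the housekeeping genes at 26.1%.

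Receptor signalling genes lost regions while most kept at least 1. Cd247, the zeta chain, lost 8 of 11 regions, Fyn 7 of 9, Trat1 5 of 6 and Prkcq, the kinase PKC theta, 5 of 7. Cd5 lost 3 of 4, among them its start site. Zap70, the kinase that binds the phosphorylated receptor, had 1 region, present in both WT libraries and in KO replicate 2. Of 20 genes with a region, 14 had a lost one, against 46.3% of all genes with a region. Genes of this list had up to 11 regions each, and more regions give more chances of a loss. Cd3d and Cd3e, each with 1 region, were the 2 genes that lost all of theirs. Of all genes with a single region, 1638 of 6945 lost it.

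Transcription factors of the T lineage ranged widely. Tox, needed for the CD4 lineage, lost 8 of 9 regions, Runx1 9 of 12, Ikzf1 7 of 8 and Lef1, the closest relative of Tcf-1, 6 of 7. Runx3, which directs the CD8 lineage, lost all 4. Ets1 lost 2 of 10 and kept 3, with 5 in a single KO list.

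At Ikzf1, which encodes the zinc-finger factor Ikaros, the single kept region lay in the gene at chr11:11725778-11726579 on GRCm38. It was 267 and 340 bp wide in KO and 780 and 797 bp in WT, so it stayed but was narrower in both KO libraries. The regions at its start sites, chr11:11685724-11686281 and chr11:11690049-11690317, were 292 and 558 bp and 202 and 204 bp wide in WT and absent from KO. The kept region of Lef1 behaved alike: chr3:131208408-131208966 was 200 and 383 bp wide in KO and 458 and 559 bp in WT.

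At Tcf7, the gene that the knockout alters, 3 of 5 regions were lost and 2 kept. The kept region inside the gene, chr11:52275323-52275860, was 202 and 201 bp wide in KO and 523 and 498 bp in WT. The kept region upstream, chr11:52314015-52314720, was 469 and 403 bp wide in KO and 624 and 706 bp in WT. A peak list carries no reads, so the deletion itself could not be seen in these files.

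At Cd8a, 1 of 4 regions was kept, at chr6:71369416-71369847, where the peak was 248 and 305 bp wide in KO and 432 and 413 bp in WT. It lies 3580 bp from the start site. The region over the start site, chr6:71373348-71373640, was 238 and 293 bp wide in WT and absent from KO. Both regions of Cd4, chr6:124879432-124879779 and chr6:124885203-124885585, were absent from KO replicate 1 and present in KO replicate 2 at 250 and 229 bp.

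Most kept regions were narrower in KO, which is a graded readout that the lost and kept calls do not use. The median width over the 9239 kept regions was 380 and 409 bp in KO and 527 and 630 bp in WT. In 6741 of them (73%) both KO peaks were narrower than either WT peak, and in 80 (0.866%) both were wider. The share narrower was 15.2% where the narrower WT peak was under 250 bp, close to the minimum of the lists, 46.8% from there to under 300 bp and 87.1% at 700 bp and over. The median log2 ratio of KO over WT width was -0.46, against -0.06 between the KO replicates and -0.18 between WT replicates 1 and 2. It was -0.56 at distal and -0.41 at start-site kept regions. Among those with WT peaks from 500 to under 700 bp it was -0.65 at distal and -0.40 at start-site regions, and 87.1% (84.5 to 89.3) and 73.05% (71.1 to 74.9) had both KO peaks narrower. List length and peak width both follow how much signal the caller saw, so depth and accessibility cannot be told apart here either.

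The kept regions of the gene lists followed the same pattern. All 6 of the costimulatory list were narrower in both KO libraries, as were 23 of 24 of the T lineage factors (median log2 ratio -0.77). The counts were 11 of 12 for the homing genes (-0.69), 7 of 9 for the Wnt pathway genes (-0.66) and 15 of 17 for the T cell receptor list (-0.63). They were 16 of 16 for the apoptosis and cell cycle genes (-0.59) and 12 of 16 for the chromatin regulators (-0.50). The DP genes had 12 of 13 (-0.46), the cytokine receptors 8 of 11 (-0.42) and the housekeeping genes 9 of 14 (-0.38). Of all kept regions 73% were narrower, with a median of -0.46, so T cell lists lay both near and below that median.

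Among the regions with the largest narrowing, named after their values were seen, several lay over start sites. At Cd81, a tetraspanin, the peak was 200 and 228 bp wide in KO and 928 and 1026 bp in WT, and at Fadd, the adaptor of the death receptors, 278 and 216 bp in KO and 1096 and 1127 bp in WT. A distal region near Dusp6, a phosphatase of the MAP kinase ERK, was 204 and 269 bp wide in KO and 1065 and 1067 bp in WT. Of the few that were wider in KO, the start site of Pdcd7 had 472 and 572 bp in KO and 291 and 225 bp in WT, and that of Krcc1 650 and 589 bp in KO and 377 and 418 bp in WT. The narrowing reached further below its WT values than any widening rose above them, with log2 ratios down to -2.27 and up to 1.02.

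Some wide WT regions were absent from KO altogether, and these are the calls least tied to a narrow peak. Among the widest distal ones, also named after their values were seen, were regions of 1188 and 1344 bp at Lor, the gene of the epidermal protein loricrin (chr3:92080575-92081918), 1112 and 1251 bp at Magi2 (chr5:20701601-20702851) and 1018 and 945 bp at Car2, a carbonic anhydrase (chr3:14886151-14887198). Over start sites, the widest were those of Med12l (1062 and 1525 bp), Gnaq, a G protein alpha subunit (1055 and 1268 bp), Rab32 (1003 and 1050 bp) and Zc3h12c (967 and 929 bp). Klf9 lost a start-site region of 772 and 787 bp, and Rin3 one of 841 and 904 bp. In all, 28 distal and 20 start-site regions of 700 bp and over in both WT libraries were lost.

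By gene, 11282 protein-coding genes had at least 1 region of both WT lists within 50 kb, and 5224 of them (46.3%) had a lost one. Of the 1020 genes with 4 or more regions, 66 lost every one and 2 kept every one. Those with the most lost regions among the 66 were Sdccag8, a centrosomal protein, with 11, then Cdk6, the kinase of early cell cycle entry, Magi2, a scaffold protein, and Pard3, a cell polarity protein, with 9 each. Filip1 lost 7, Fli1, an Ets-family factor of blood cells, Nrxn3 and Osbpl1a 6 each, and Adamts2 and Ankrd55 5 each. The genes that kept everything were Copb1, a subunit of the coat of transport vesicles, and Kmt2e, a chromatin protein, with 4 regions each. The median WT width was 340 bp at Sdccag8, 238 bp at Cdk6, 480 bp at Copb1 and 718 bp at Kmt2e. With lists of equal length Sdccag8 still had 4 lost regions, Magi2 3, Nrxn3 2 and Cdk6 and Pard3 1 each, while Fli1 had 0.

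The fate of a promoter said little about the distal regions of the same gene. Among genes whose start-site windows were all lost, 71.2% of the distal regions were lost (67.4 to 74.6; 288 genes), among those with a mixed outcome 69.6% (323 genes), and among those with all windows kept 70.9% (69.4 to 72.4; 1836 genes). The intervals overlap, and no difference was seen at this number of regions.

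Loss was spread along the genome rather than gathered in few loci. Regions of both WT lists were chained where the gap between them was at most 0.5 times 25 kb, and 114 chains had 5 or more regions. Every region was lost in 6 of these clusters and every region was kept in none, and 57.2% of their 638 regions were lost, against 42.8% of regions that stood alone. Among distal regions only, the shares were 68.5% (64.1 to 72.7) in clusters and 64.7% (63.5 to 65.8) alone, so most of that gap went with the share of start sites. A distal region whose nearest distal neighbour within 5 kb was lost was itself lost in 67.5% of cases (64.8 to 69.97), against 57.7% (52.8 to 62.5) where the neighbour was kept, and the values were 68.4% and 58.2% when the neighbour was 100 kb away or more.

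In the clusters that lost everything, 1 gene of the T cell lists was found, Ikzf1. At Nfkb1, a subunit of the factor NF-kappaB, 6 regions over 29.1 kb were lost (chr3:135581498-135610635), with widths of 230 to 489 bp in WT replicate 1 and 225 to 617 bp in WT replicate 2. A further region of Nfkb1 outside the cluster, chr3:135690764-135691815, was kept, with 368 and 365 bp in KO and 458 and 1044 bp in WT. Next to Klrb1b, an NK receptor gene, and BC035044, 6 regions over 21.3 kb were lost. At Ikzf1, L3mbtl3 and Stra8 with Slc23a4, clusters of 5 were lost. The other clusters with 6 lost regions were at Txk and Tec (6 of 7), at Tnfrsf1b and Tnfrsf8, both receptors of the TNF family (6 of 8), at Slc6a19 and Slc12a7 (6 of 8) and at D16Ertd472e (6 of 8). The sixth of the wholly lost clusters lay among V segments of the immunoglobulin heavy chain locus Igh (chr12:115790528-115821069).

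Antigen receptor loci were looked at after the Igh cluster had been seen. Their shares stand beside 45.7% of all regions and 64.8% of all distal regions lost, and outside Igh they rest on few regions. Igh spans 2.75 Mb and had 8 and 15 regions in KO and 90 and 118 in WT. Of its 87 regions in both WT lists 71 were lost (81.6%) and 7 kept. Tcrb, the receptor beta chain locus, had 1 and 1 regions in KO and 12 and 15 in WT, with 11 of 12 lost (91.7%). Tcra, the alpha chain locus that DP cells rearrange, had 6 and 11 in KO and 17 and 24 in WT. Of 15 regions 8 were lost and 3 kept, a share of 53.3% that lies between the 2 backgrounds. Tcrg, the gamma chain locus, had 0 and 0 in KO and 3 and 3 in WT, and all 3 were lost. Igk, the kappa light chain locus, had 1 and 1 in KO and 4 and 5 in WT, with 3 of 4 lost (75%). Igl, the lambda locus, had no region in any library. Rearrangement removes segments from these loci, and V segments are repeated sequences. Their part in the result was not tested. The counts of B cell genes with a region also fell (1 and 0 of 10 in KO, 5 and 5 in WT). With KO lists close to a subset of the WT lists, those counts could hardly do otherwise. Of 8 B cell start-site windows, 0 were open in both WT libraries, so the counts say nothing about B cells here.

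Long runs of consecutive regions with the same fate were found. The longest run of lost regions held 24 regions over 1.49 Mb of chromosome 8 and covered Pard3 and Nrp1, the gene of the receptor neuropilin-1. The next ones held 20 regions on chromosome 5 around Sema3a, Cacna2d1 and Magi2, 19 on chromosome 15 around Ptger4, Dab2 and Fyb, an adaptor of T cell adhesion, and 17 on chromosome 14 around Spry2. Runs of 15 were on chromosomes 6, 7 and 16. The longest runs of kept regions held 15 on chromosome 2 from Slc27a4 to Dolk and 15 on chromosome 6 around Cul1 and Ezh2. They were followed by 14 on chromosome 17 around Traf7 and Pkd1, 13 on chromosome 2 around Celf1 and Psmc3, 12 on chromosome 11 around Ppm1d and Med13, and 12 on chromosome 14 around Psmc6. Gene ends, within 1 kb, made up 60% to 91.7% of the regions in these kept runs and 0% to 13.3% in the longest lost ones down to 15 regions. In 296 windows of 1 Mb with 20 or more regions, the lost share ran from 4.55% to 85.7%, with a median of 46.2%.

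Chromosomes differed mainly with their share of gene-end regions. The lost share was lowest on chromosome 11, at 35.3%, where 53.4% of regions were at gene ends, and highest on chromosome 12, at 51.7%, where 32.9% were. Over the 20 chromosomes other than Y, the Pearson correlation of the 2 shares was -0.80, given as a description, since all points share the same libraries. Among distal regions alone the range was 58.8% (chromosome 11) to 71.4% (chromosome X).

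Chromosome X stood apart at start sites. Of its 264 start-site regions 26.1% were lost (21.2 to 31.8), while the 18 autosomes with start sites ranged from 6.87% to 13.7%. The KO libraries showed it separately: 37.5% and 31.1% of the X start-site regions were absent from KO replicates 1 and 2, against 11.1% to 22.6% and 10.7% to 17.7% on the autosomes. Where both WT peaks were at least 500 bp wide, 13.6% of 125 X regions were lost, against 0.455% to 4.08% on the autosomes. The kept start-site regions of X were also narrower in KO, with a median log2 ratio of -0.56, against -0.48 to -0.35 on the autosomes. Peaks on X were 2.17% and 2.31% of the KO lists and 2.49% and 2.54% of the WT lists.

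The sex of the animals could not be read from the start sites of sex-specific genes. No library had a peak within 1 kb of the start of Xist, the RNA that silences an X chromosome in female cells, or of the Y genes Ddx3y, Kdm5d, Eif2s3y and Uty. A difference in sex between the groups, an effect of the knockout on X and a difference in depth, which is unknown, cannot be told apart.

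**Figure D5:**
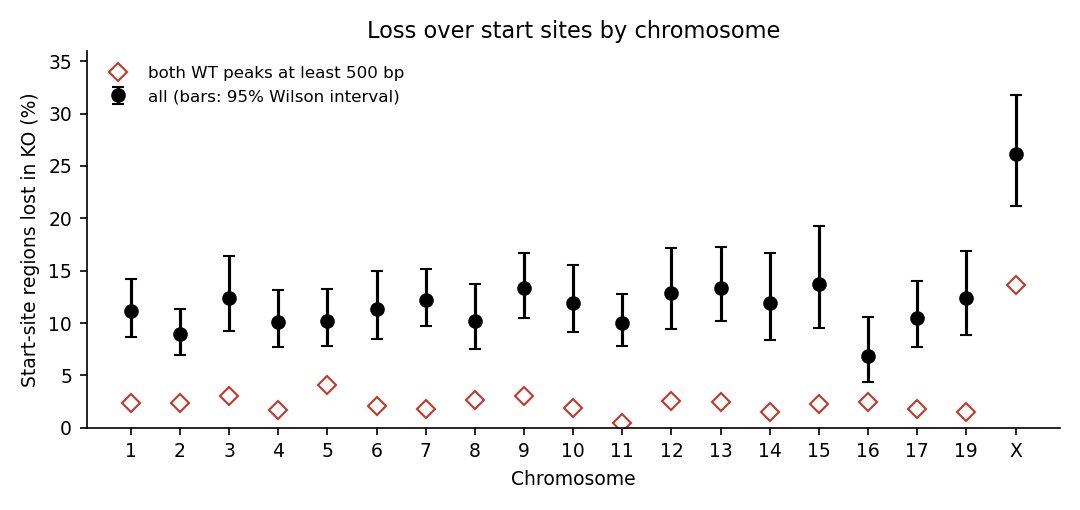
Percent of start-site regions of both WT lists that were lost in KO, by chromosome (chromosome 18 is not included); filled points with 95% Wilson intervals are all regions and open diamonds those with WT peaks of at least 500 bp. X stands at 26.1% and 13.6%, above the autosomes at 6.87% to 13.7% and 0.455% to 4.08%.

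In the whole lists gained regions were few and narrow. With lists of equal length 955 were gained, but that cut left in narrow KO peaks and took out narrow WT ones. Only 45 regions of both KO lists had no WT peak in the whole lists, so most of the 955 had one before the cut. The 45 made up 0.142% of all merged regions, and their narrower KO peak had a median of 219 bp. Both KO peaks were under 250 bp in 18 of them, and 9 lay within 1 kb of another region of the WT lists. The midpoint of 15 of them (33.3%, interval 21.4 to 47.9) lay in H3K9me3 islands of the fibroblasts, against 5.47% of lost regions. Genes with 2 gained regions were Acnat1, Tmem267, Ctnnd2 and Gm39469. Both peaks of the gained regions at Acnat1 were 200 to 229 bp wide, close to the minimum of 200 bp in every list. The widest at Tmem267, chr13:119616349-119616771, was 423 and 297 bp in KO. A region inside Tcf7l2, a further member of the Tcf/Lef family, at chr19:55792587-55792888, was 204 and 302 bp wide in KO and absent from WT, and it is named after its values were seen. No list gene gained a region.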

How the data were processed

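Peak lists of 4 DP thymocyte ATAC-seq libraries were analysed. The deposited files, as the authors made them, hold peak positions (chromosome, start and end, the unit recorded here as other values) and no score, so width is the only value per peak and the depth is unknown. Per the labels' protocols, 50000 sorted cells were tagmented with Tn5. The submitters' processing notes name MACS2, Picard, Bowtie2 2.2.9, STAR 2.5, Trim Galore and FastQC and the builds mm10, GRCm38 and GRCh37. Which tool made which file, and whether a control was used in peak calling, is not stated in the notes.

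Peaks on named chromosomes were merged at 1 bp overlap with Python 3.11.15 (104 unplaced peaks left out). The deposited NIH3T3 lists (4 empty-retrovirus ATAC-seq libraries, pooled Tcf-1 summits, and islands of H3K27me3 and H3K9me3) served as annotation. Genes, at gene ends within 1 kb and assigned within 50 kb, came from RefSeq GRCm38.p6, which gives no strand. Start sites and sequences came from the RefSeq promoter table of that build. Start-site values do not include chromosome 18, which was not used here. KO minus WT differences between libraries were tested by exact permutation, two-sided, and shares have 95% Wilson intervals. The calling was tested on 28262 simulated regions with known classes and returned the class of all of them.

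The members, gene lists and tests were chosen with earlier results of these data known. Named are the 10 genes with the most regions (at least 4) that were all lost or all kept, the 10 clusters with the most lost regions and the 5 largest with a single fate, the 5 longest runs, genes with 2 or more gained regions, up to 4 genes per list by number of regions, the extreme chromosomes and Tcf7. List members named for their start sites, and the genes said to be named after their values were seen, are outside that rule. Alternatives were other overlap, distance, width and list-length rules and leaving out each library; start-site distances, width classes, CpG classes, widths of kept regions, chromosome X and receptor loci were added after the data had been seen.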

Additional observations from a re-analysis of the deposited data

How the results depend on the processing

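Lost regions were 10032 as reported, 1361 with lists of equal length and 5598 with peaks of at least 300 bp only, and 10907 to 18418 when single libraries were left out. Gained regions were 45, and 955, 15 and 49 to 204 under the same settings. Kept regions were 9239, and 5695 with peaks of at least 300 bp only. The difference in gene-end share, 27.8 points, was 7.51 with lists of equal length, and that in fibroblast-open share, 25.9 points, was 3.74. The KO minus WT difference in median width, -0.5 bp, was -213 bp with lists of equal length, -16.5 bp with peaks of at least 300 bp only, 1.5 bp on the autosomes and -7.5 to 6.5 bp without single libraries. Of gene-end regions 16.8% were lost, and 14.5% with gene ends at 500 bp, 24.6% at 5 kb, 5.56% with lists of equal length and 18.8% to 27.8% without single libraries, highest without WT replicate 1. Of distal regions 65.9% were lost, and 64.8%, 68.1%, 31.01% and 67.1% to 76.9% under the same settings. Chaining at 25 kb gave 548 clusters in place of 114, with 25 in place of 6 wholly lost; more regions fall into 1 chain by construction. Leaving out a library makes the lost and gained rules ask less. Lists of equal length leave out narrow peaks almost only from WT, so regions with narrow WT peaks can turn from kept to gained. The cause of the other shifts was not tested. Regions that had to be covered to 50%, absence within 1 kb and autosomes only kept lost and gained counts within 1.5 times. Of 72 named genes, 52 had a lost count within 1.5 times when assigned within 10 kb and 4 had none lost; with lists of equal length these were 11 and 39.

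With the replicate number as a block, 10032 regions were lost, since the rule asks for the same calls. The exact sign-flip p for peaks, gene-end share and fibroblast-open share per library was 0.5, the smallest that 2 pairs can give. Deviations of same-numbered libraries had a correlation of -0.05 in both pairs. With 2 libraries per group both values are equal by construction, so they cannot decide on pairing. The numbers were not treated as pairs.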
